A study of Rattus norvegicus with 18 samples.

Results

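The cytosolic ribosomal protein genes were followed in cortical collecting ducts, the part of the kidney tubule that sets the final salt, acid and water content of urine. Members were the rows of the deposited table whose symbol begins with Rpl or Rps and a number, or is Rpsa, Rplp0, Rplp1 or Rplp2, leaving out the Rps6k kinases. The rule took 98 of 32883 rows, with 88 symbols: 59 rows of the large subunit, 38 rows of the small subunit and Rps19bp1, which the table annotates as a regulator of SIRT1 and not as a ribosomal protein. Ducts were microdissected from male Sprague-Dawley rats 3 h after intraperitoneal LPS (lipopolysaccharide, a component of bacterial cell walls) in the LPS group, or after Vehicle, which was normal saline. No genetic change was named in either group, and the labels give no age. Each group had 3 numbered samples with 3 libraries each, 18 libraries in all, and the design text calls the samples paired. Neither the source animals of the numbered samples nor the basis of the pairing is stated, and the p-values therefore describe variation among these 6 samples. A microdissected duct holds principal and intercalated cells, and fewer cells of a type and less RNA per cell cannot be told apart in such a sample.

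Ribosomal proteins coat the ribosomal RNAs of the small and large ribosomal subunits, and most are needed in equal numbers for a complete ribosome. Their messages are abundant in nearly every cell type. Many begin with a C followed by a run of pyrimidines, the terminal oligopyrimidine (TOP) motif, through which the kinase complex mTORC1 and the RNA-binding protein Larp1 control their translation and stability. A change in their translation need not show in their RNA level, which is what was measured here.

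Start sites from RefSeq on build GRCr8 were read because this motif lies at the first bases of the message. A window of 250 bases before and 50 after an annotated start was held for 67 of the 88 symbols, in 68 windows. Position 1 is the annotated start. The sequences that follow run 5′ to 3′ on the strand of the gene, 20 bases before the start and 20 from it, and capitals mark the unbroken run of C and T that begins at position 1. The first 5 are abundant or named members that hold a C and at least 4 more pyrimidines there. They are Rplp1 (chr8:71290853-71290892, minus strand), Rpl10 (chrX:157205830-157205869, plus strand), Rpl19 (chr10:83519044-83519083, plus strand), Rps18 (chr20:4933725-4933764, plus strand) and Rps27 (chr2:177964587-177964626, minus strand). Other standard members lacked such a run at the annotated start, among them the abundant Rpl41, Rpl18 and Rpl36. The last 3 sequences shown are paralogs of ribosomal proteins that also lacked it. They are Rps27l (chr8:76443638-76443677, plus strand), Rpl7l1 (chr9:21695698-21695737, plus strand) and Rpl22l1 (chr2:113683176-113683215, plus strand).
Rplp1: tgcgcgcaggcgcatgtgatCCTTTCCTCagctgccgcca
Rpl10: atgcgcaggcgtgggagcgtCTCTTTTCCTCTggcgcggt
Rpl19: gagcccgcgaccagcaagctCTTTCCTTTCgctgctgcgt
Rps18: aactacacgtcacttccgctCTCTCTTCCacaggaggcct
Rps27: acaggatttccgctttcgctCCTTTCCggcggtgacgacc
Rps27l: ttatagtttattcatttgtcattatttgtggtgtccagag
Rpl7l1: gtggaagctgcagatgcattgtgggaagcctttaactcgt
Rpl22l1: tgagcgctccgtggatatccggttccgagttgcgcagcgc

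A TOP-like start, defined as a C and at least 4 more C or T from position 1, was present in 21 of 68 member windows (30.9%), against 881 of all 33469 windows in the table (2.63%). Within the 300-base windows, read on both strands, CCGGAAG, the core of ETS factor motifs, was in 20 member windows (29.4%, against 8.75% of all windows). TATAAA was in 9 member windows (13.2%, against 14.2%). The other strand of the first motif, CTTCCGG, can overlap a pyrimidine run. These motifs were chosen after member sequences had been seen, and a match describes letters only. The 20 tested members with a TOP-like start and a single row had a median log2 change of 0.09 (LPS minus Vehicle), with a range of -0.20 to 0.32. The 36 with another annotated start, leaving out Rpl38, which is listed at 0 in every Vehicle sample, had a median of 0.00, with a range of -0.30 to 0.32. Some members with another start hold a long pyrimidine run that begins with T, such as Rps23 and Rpl27a (19 bases each) and Rps24 (9 bases). In Rpl13a and Rpl23 a pyrimidine run lies just before the annotated start. The split therefore follows the annotated first base, and TOP messages were not separated from other messages by it.

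The share of all TPM held by the family overlapped between the groups (TPM is an abundance corrected for transcript length and scaled to the same total in each library). It made up 2.24%, 2.09% and 2.20% of the total in LPS samples 1 to 3, against 2.10%, 2.11% and 2.06% in Vehicle samples 1 to 3. The highest and second highest samples were LPS samples, and LPS 2 lay below Vehicle 1 and 2, so the groups overlapped. The means were 2.18% ± 0.0743 in LPS and 2.09% ± 0.0267 in Vehicle (SD, n = 3 each), a difference of 0.0835 percentage points (exact permutation test, two-sided, p = 0.3, where 3 against 3 cannot go below 0.1). That test does not use the pairs, and an exact sign-flip test within pairs gave p = 0.5. Without pair 2 the difference was 0.135 points, and without pair 1 or pair 3 it was 0.0587 and 0.0563. Large subunit rows took 1.34% ± 0.0597 of TPM in LPS and 1.298% ± 0.0351 in Vehicle, and small subunit rows took 0.826% ± 0.0167 in LPS and 0.784% ± 0.0102 in Vehicle (SD, n = 3 each). The small subunit share was 0.829%, 0.808% and 0.841% in LPS samples, against 0.787%, 0.773% and 0.792% in Vehicle samples. Here every LPS sample lay above every Vehicle sample, by 0.042 percentage points between the means (exact permutation p = 0.1, the smallest that 3 against 3 can give). This test was not planned and was run after the values had been seen. The large subunit share overlapped between the groups and was not tested. The small subunit share also leaves out rows outside the rule, which carry S14 and most of S29. The log2 ratio of small to large subunit TPM was -0.75, -0.66 and -0.69 in LPS samples, against -0.73, -0.78 and -0.67 in Vehicle samples, and these values overlapped (difference 0.03, exact permutation p = 0.6).

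**Figure D1:**
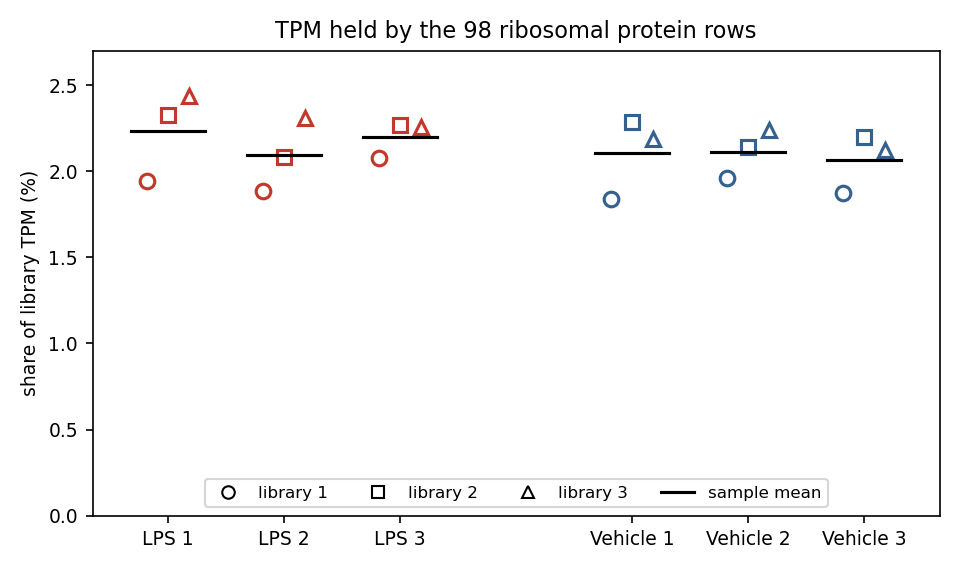
Share of library TPM held by the 98 rows (percent, vertical axis) in each LPS and Vehicle sample, with 1 symbol per library and a line at the mean of the sample. Sample means lie between 2.09% and 2.24% in LPS and between 2.06% and 2.11% in Vehicle, and library 1 is the lowest in 6 of 6 samples.

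No ribosomal protein row was called changed in TPM, although this depended on the scaling described further on. Across the table, 12393 rows averaged at least 1 TPM and were tested with limma on log2(TPM + 1), and 3646 of them (29.4%) passed an adjusted p of 0.05, 889 higher (7.17%) and 2757 lower (22.2%) in LPS. Of the 91 members that were tested, 0 passed in either direction, and 4 had an unadjusted p under 0.05, against 47.2% of all tested rows. Those 4 were Rpl30, Rpl38 and Rps23 on the higher side and 1 of the Rpl21 rows on the lower side. The 7 members under the filter were Rpl30l1, Rpl35a, Rpl39l, Rpl3l, Rps6, 1 row of Rpl21 and 1 row of Rps19l2. The number of rows called across the table rested on particular pairs: it was 4599 without pair 1, 715 without pair 2 and 0 without pair 3. A log2 change here is on the log2(TPM + 1) scale, which understates change in low rows.

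On the TPM scale the changes of the members were small and their intervals narrow. Their median log2 change was 0.03 (LPS minus Vehicle), with the middle 50% between -0.06 and 0.11, against a median of -0.38 over all tested rows. The median was 0.02 over the 54 large subunit rows and 0.07 over the 36 small subunit rows. It was 0.05 in pair 1, -0.02 in pair 2 and 0.05 in pair 3. The change was under 0.3 in size in 80 members (87.9%), against 29.6% of all tested rows. The 95% interval of the change lay wholly between -1 and 1 in 84 members (92.3%), against 46.1% of all tested rows. Sample values of the groups did not overlap in 19 members (20.9%), 11 higher and 8 lower in LPS, against 56.9% of all tested rows (9.82% higher and 47.1% lower). The members were also less variable between samples than the typical row: the median SD of log2(TPM + 1) between LPS samples was 0.11 over members and 0.25 over all tested rows, and between Vehicle samples it was 0.09 over members and 0.17 over all. Between libraries of 1 sample the median SD was closer, at 0.168 over members and 0.187 over all tested rows. Members are more abundant than the typical row, and spread at like abundance was not tested.

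The level that counts as no change depends on how libraries are scaled. TPM sums to the same total in each library, and most tested rows lay below 0 (9486 of 12393). After median-ratio scaling, which sets the typical row to no change, the median of all tested rows was -0.01 and that of the members was 0.44. In that scaling 4 members were called higher (Rpl10, Rps23, Rps18l1 and 1 row of Rps27a) and 0 lower, against 6.89% of all tested rows called higher and 3.71% called lower. An unadjusted p under 0.05 was reached there by 65 of the 91 members (71.4%), all 65 on the higher side, against 36.2% of all tested rows, where TPM gave 4 members. Quantile normalization gave medians of 0.05 over members and -0.13 over all tested rows, with 0 members called against 11.0% of all tested rows, and 6 members at an unadjusted p under 0.05 against 35.5% of all. The members' median thus lay above that of all tested rows by 0.41 in TPM, 0.46 after median-ratio scaling and 0.18 after quantile normalization. Single members were called in 3 further settings. Fitting all 18 libraries with an estimated correlation called Rpl30 higher and Rps19bp1 lower, against 9.59% of all tested rows called higher and 42.7% called lower. Without a variance trend 1 low Rpl21 row was called lower, against 19.2% of all, and without pair 1 Rpl38 was called higher, against 8.10% of all. Rpl38 is listed at 0 in LPS 1 and in all Vehicle samples and passed the filter through LPS 2 and LPS 3, so that call supports nothing about the family.

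**Figure D2:**
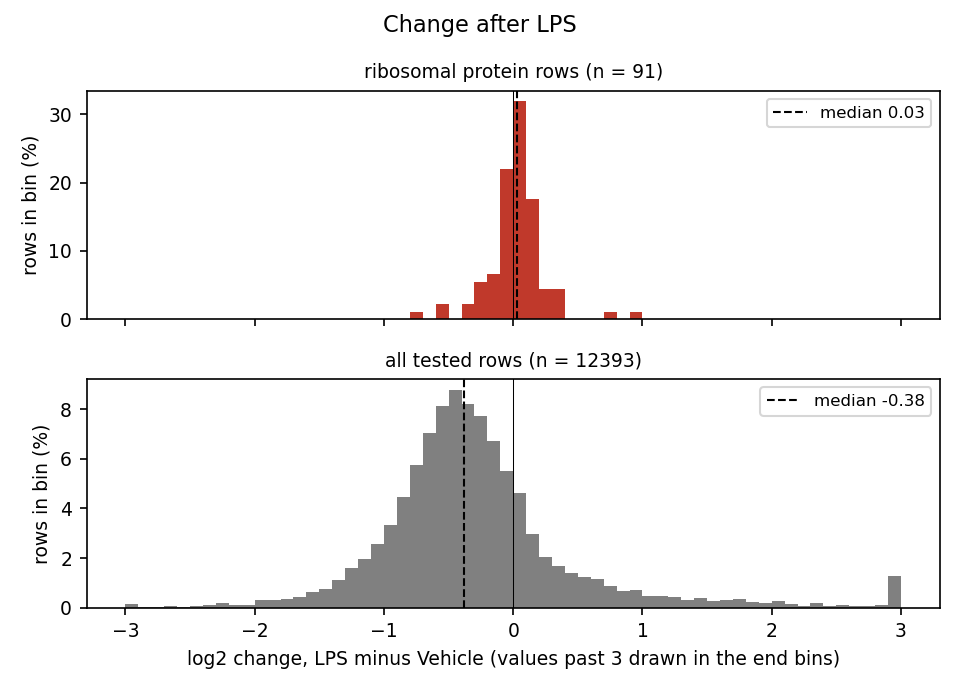
Log2 change on the log2(TPM + 1) scale (LPS minus Vehicle, horizontal axis) for the 91 tested ribosomal protein rows (top) and for all 12393 tested rows (bottom), as the percent of rows in each bin. Dashed lines mark the medians, 0.03 for the ribosomal protein rows and -0.38 for all tested rows.

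The contrast with other rows was smaller among abundant rows. The median member stood at 192.4 TPM in LPS and 196.0 TPM in Vehicle, 78 members averaged at least 50 TPM, and 49 were among the 1000 most abundant tested rows. Among the 2998 rows with at least 50 TPM, a filter chosen after the data had been seen, 479 (16.0%) were called, 261 higher and 218 lower, and 0 of the 78 members. The medians there were 0.04 over members and -0.19 over all rows.

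The most abundant members carried the same picture. Rplp1, an acidic protein of the stalk that recruits translation factors to the large subunit, had 1606, 1583 and 1463 TPM in LPS samples, against 1278, 1698 and 1172 TPM in Vehicle samples. The Vehicle samples spanned the LPS values, and the log2 change was 0.17 (95% interval -0.14 to 0.48, adjusted p = 0.32). Rpl41, the smallest protein of the large subunit, had 1041, 1001 and 1079 TPM in LPS samples, against 1022, 1032 and 1050 TPM in Vehicle samples. Its change was 0.01 (95% interval -0.25 to 0.27, adjusted p = 0.959), and the groups overlapped fully. The large subunit proteins Rpl18, Rpl36 and Rpl19 came next in abundance. Rpl18 averaged 679 ± 97.2 TPM in LPS and 779 ± 49.2 TPM in Vehicle (SD, n = 3 each), with a log2 change of -0.21 (adjusted p = 0.271) that was 0.21 after median-ratio scaling. Rpl36 averaged 587 ± 42.7 TPM in LPS and 574 ± 25.3 TPM in Vehicle, with a change of 0.02 (adjusted p = 0.894). Rpl19 averaged 588 ± 37.7 TPM in LPS and 551 ± 10.5 TPM in Vehicle, with a change of 0.09 (adjusted p = 0.56). After median-ratio scaling Rpl36 had 0.436 (adjusted p = 0.0847) and Rpl19 had 0.508 (adjusted p = 0.0826).

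The other stalk proteins lay close to no change on the TPM scale as well. Rplp0, which anchors the stalk, had 336.6, 289.2 and 317.0 TPM in LPS samples, against 303.8, 314.9 and 306.8 TPM in Vehicle samples, a log2 change of 0.03 (adjusted p = 0.867). Rplp2, the partner of Rplp1, had 171.4, 150.3 and 170.7 TPM in LPS samples, against 152.6, 182.6 and 152.8 TPM in Vehicle samples, a log2 change of 0.02 (adjusted p = 0.94). In both genes an LPS sample held the lowest value and the groups overlapped. Rpl5 and Rpl11 join the smallest ribosomal RNA in a particle that, when free of the ribosome, binds the ubiquitin ligase Mdm2. Rpl5 had 217.2, 186.7 and 200.7 TPM in LPS samples, against 200.0, 186.8 and 201.1 TPM in Vehicle samples (log2 change 0.04, 95% interval -0.29 to 0.37). Rpl11 had 293.0, 296.5 and 282.9 TPM in LPS samples, against 257.0, 289.2 and 264.3 TPM in Vehicle samples (log2 change 0.10, 95% interval -0.21 to 0.42). Rpl11 was higher in 3 of 3 pairs with overlapping groups, and neither gene passed the test (adjusted p = 0.822 for Rpl5 and 0.558 for Rpl11). After median-ratio scaling Rpl11 had a log2 change of 0.515 (adjusted p = 0.065).

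Rpl13a has a known role away from the ribosome: in human monocytic cells exposed to interferon gamma it leaves the large subunit and silences inflammatory messages. It had 156.2, 127.3 and 138.1 TPM in LPS samples, against 171.0, 154.0 and 173.9 TPM in Vehicle samples. The LPS value was the lower one in 3 of 3 pairs, the groups overlapped at LPS 1 and Vehicle 2, and the log2 change was -0.24 (95% interval -0.58 to 0.11, adjusted p = 0.229), or 0.17 after median-ratio scaling. Rpl10, which is added late to the large subunit and completes its catalytic side, had 560.1, 498.4 and 542.6 TPM in LPS samples, against 379.1, 485.3 and 435.0 TPM in Vehicle samples. Every LPS sample lay above every Vehicle sample, with a log2 change of 0.32 (95% interval -0.03 to 0.66, adjusted p = 0.131), or 0.729 after median-ratio scaling, where it was called (adjusted p = 0.0457). Rpl3, which lies near the catalytic centre, averaged 300.2 ± 30.01 TPM in LPS and 300.8 ± 28.9 TPM in Vehicle (SD, n = 3 each).

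Among small subunit members, Rps23, a protein of the decoding centre, had 343.8, 400.1 and 387.4 TPM in LPS samples, against 294.1, 297.8 and 318.8 TPM in Vehicle samples. The groups did not overlap, and the log2 change of 0.32 (95% interval 0.01 to 0.63) had an adjusted p of 0.101. Rps9, another protein of the small subunit, had 472.4, 457.4 and 471.5 TPM in LPS samples, against 408.7, 393.7 and 412.5 TPM in Vehicle samples. It too did not overlap, at a log2 change of 0.21 (adjusted p = 0.22). Rps3, which lines the entry of the message channel, averaged 239 ± 6.11 TPM in LPS and 232 ± 5.48 TPM in Vehicle, a log2 change of 0.04. Rps18, of the head of the small subunit, had 436.6, 389.4 and 482.1 TPM in LPS samples, against 406.9, 366.3 and 411.9 TPM in Vehicle samples (log2 change 0.15). Rpsa, also known as the laminin receptor, averaged 167 ± 13.7 TPM in LPS and 150 ± 14.4 TPM in Vehicle (log2 change 0.16; SD, n = 3 each for Rps3 and Rpsa). Adjusted p was 0.811 for Rps3, 0.381 for Rps18 and 0.429 for Rpsa. Of the 36 tested small subunit rows, 5 were higher and 3 were lower in LPS without overlap. The lower ones were Rps7 (log2 change -0.195, adjusted p = 0.304), Rps24 (-0.086, adjusted p = 0.634) and Rps10l1 (-0.563, adjusted p = 0.112). Rps9, Rps23, Rps7, Rps24, Rps10l1 and, in what follows, Rps20, Rpl30, Rps29, Rpl9 and Rps19bp1 are outside the rule for named genes. They were chosen after their values had been seen.

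**Figure D3:**
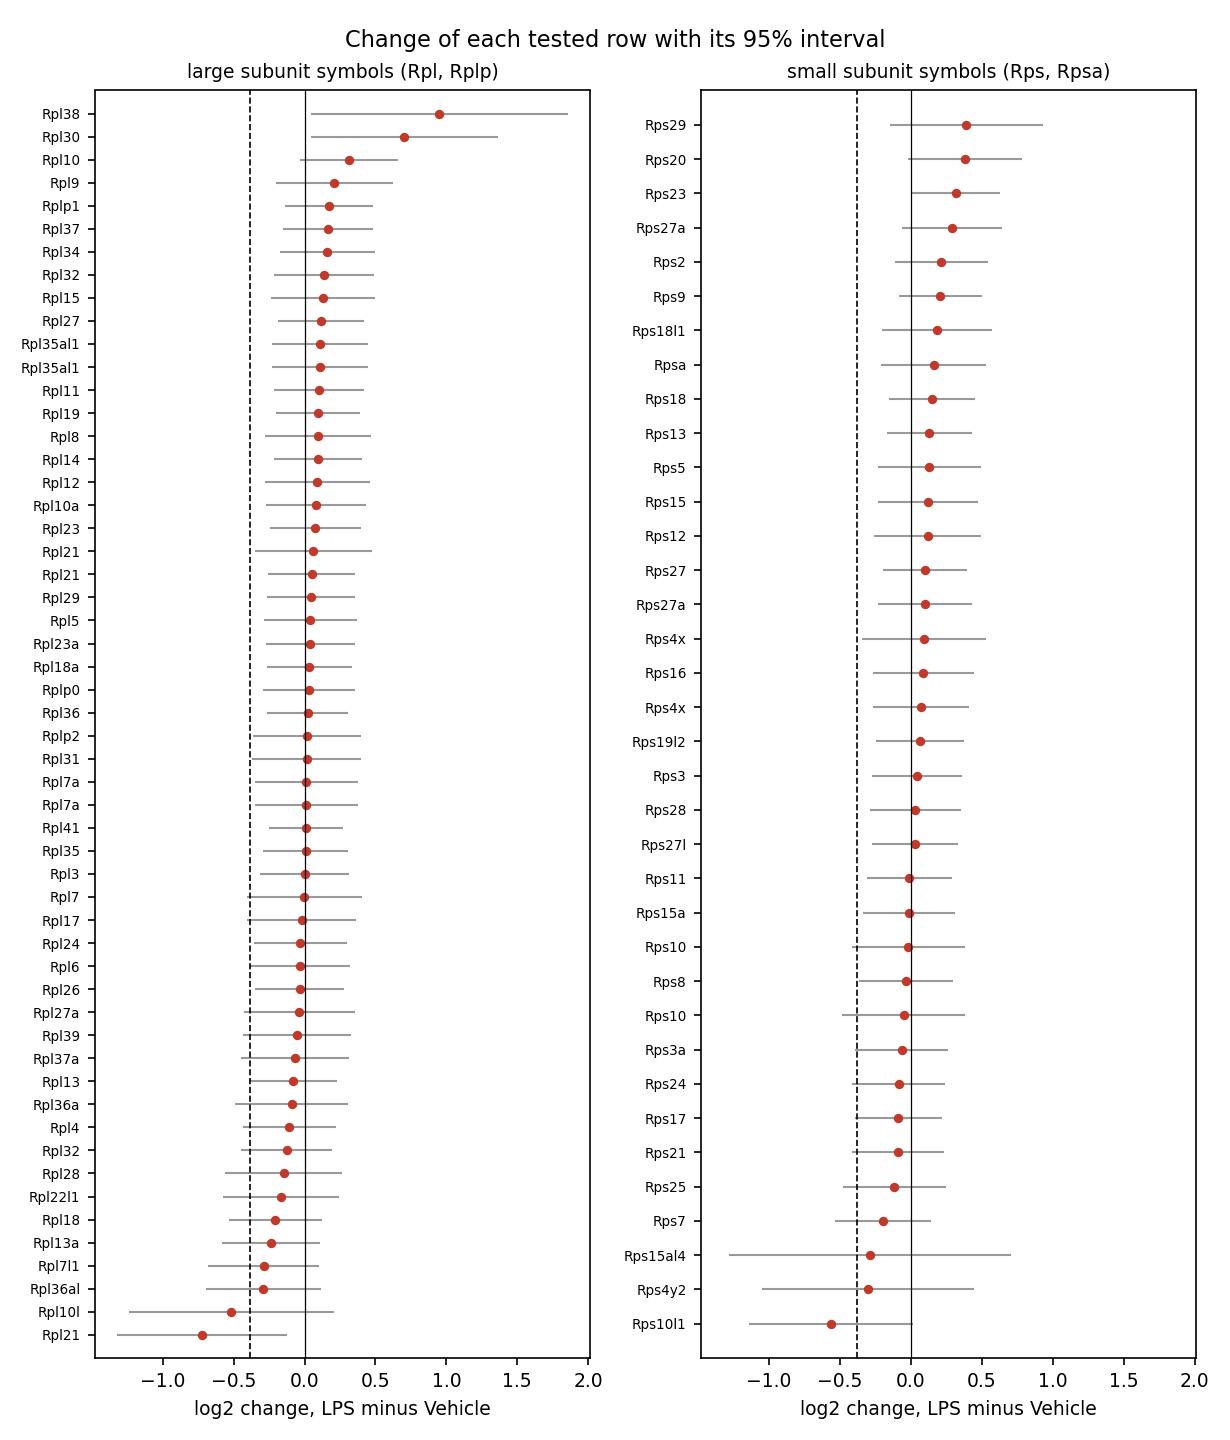
Log2 change (log2(TPM + 1) scale, LPS minus Vehicle, horizontal axis) of the 54 large subunit and 36 small subunit rows that were tested, with 95% intervals; a symbol drawn more than once has several rows. The solid line is no change and the dashed line is the median of all tested rows, -0.38. Points crowd around 0, and the widest intervals belong to low rows such as Rpl38, Rps15al4 and Rps4y2.

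**Figure D4:**
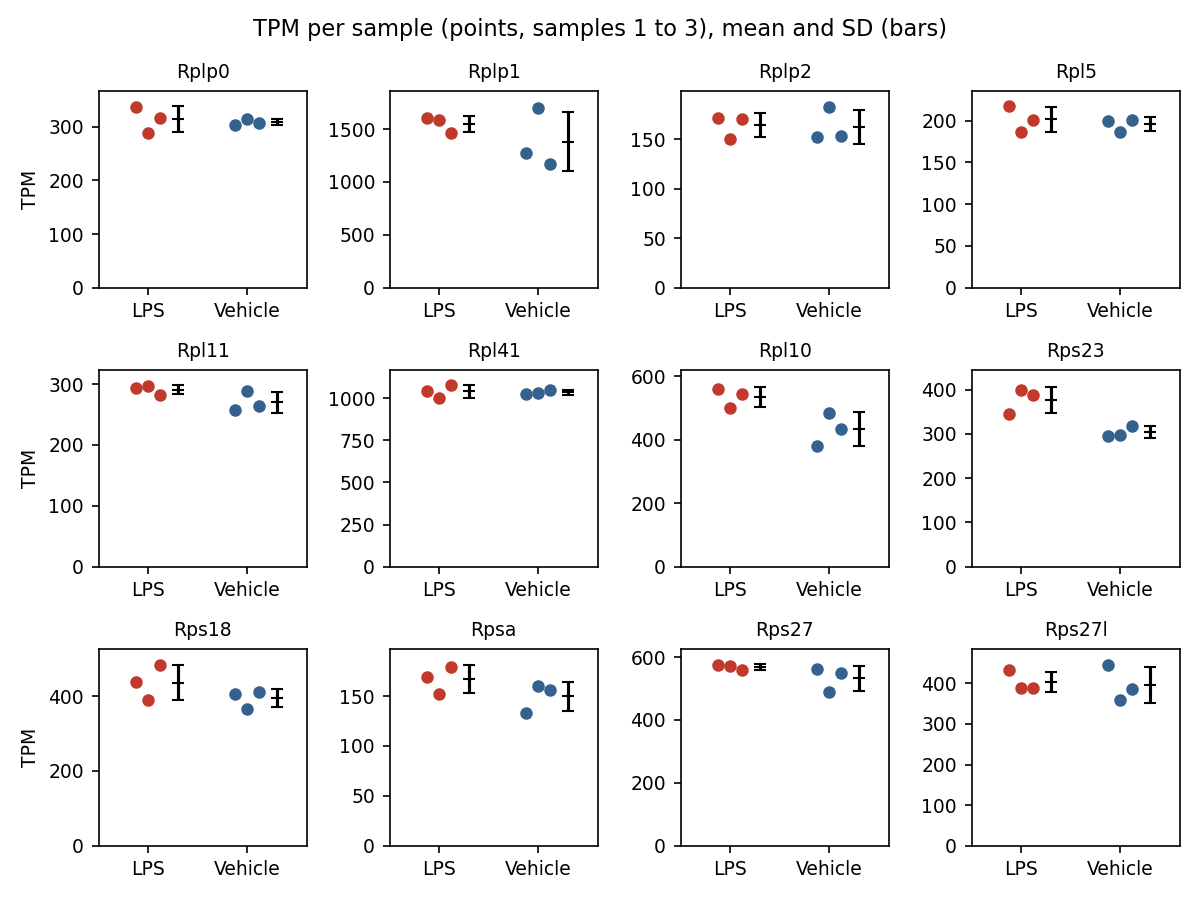
TPM (vertical axes, from 0) of 12 members in LPS samples (left) and Vehicle samples (right), as points for samples 1 to 3 with mean and SD beside them. Of these 12, Rpl10 and Rps23 have every LPS sample above every Vehicle sample, and the groups overlap in the other members.

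Paralogs that can stand in for a standard ribosomal protein were read beside their partners. Rps27l had 432.8, 389.2 and 387.9 TPM in LPS samples, against 445.2, 358.6 and 385.5 TPM in Vehicle samples. Its partner Rps27 had 574.1, 571.7 and 558.3 TPM in LPS samples, against 563.3, 487.9 and 548.0 TPM in Vehicle samples. The log2 ratio of Rps27l to Rps27 was -0.40, -0.54 and -0.52 in LPS samples and -0.33, -0.43 and -0.49 in Vehicle samples, which overlapped (difference -0.07, exact permutation p = 0.4). The ratio was lower in LPS in each pair. An exact sign-flip test within pairs gave p = 0.25, the smallest that 3 pairs can give. Taking the median of the libraries of a sample in place of the mean turned the difference between the groups to 0.04.

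Rpl22l1, the paralog of Rpl22, averaged 60.6 ± 4.14 TPM in LPS and 68.8 ± 6.13 TPM in Vehicle (log2 change -0.17, adjusted p = 0.462), and Rpl22 was not analysed here. Rpl7l1, a relative of Rpl7 that acts in assembly of the large subunit, had 68.35, 71.94 and 61.84 TPM in LPS samples, against 80.95, 79.45 and 88.44 TPM in Vehicle samples. Every LPS sample lay below every Vehicle sample, with a log2 change of -0.29 (adjusted p = 0.204), while Rpl7 averaged 29.6 ± 1.301 TPM in LPS and 29.8 ± 0.988 TPM in Vehicle. Rpl36al had 80.5, 56.94 and 68.65 TPM in LPS samples, against 84.94, 82.73 and 80.76 TPM in Vehicle samples, again without overlap (log2 change -0.29, adjusted p = 0.216). Its near twin Rpl36a averaged 33.9 ± 1.20 TPM in LPS and 36.7 ± 2.23 TPM in Vehicle (log2 change -0.09). Under median-ratio scaling the changes of Rpl22l1, Rpl7l1, Rpl7, Rpl36a and Rpl36al were above 0, at 0.24, 0.12, 0.40, 0.31 and 0.12, and none of them was called there.

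Tissue-restricted paralogs were at or near the floor of the data. Rpl3l, which in other mammals is mainly a muscle gene, averaged 0.0356 TPM in LPS and 0.139 TPM in Vehicle. Rpl39l, known from testis, had 0, 2.77 and 0.153 TPM in LPS samples and 0.147, 0.233 and 0.117 TPM in Vehicle samples. Rpl10l, also known from testis, averaged 1.86 ± 1.67 TPM in LPS and 2.78 ± 1.305 TPM in Vehicle (SD, n = 3 each). Rpl39, which lines the exit tunnel for the new protein chain, averaged 62.0 ± 6.61 TPM in LPS and 64.3 ± 8.37 TPM in Vehicle. Rps4x had 2 rows. The first averaged 154 ± 2.08 TPM in LPS and 146 ± 2.16 TPM in Vehicle, and the other averaged 26.8 ± 2.66 TPM in LPS and 25.4 ± 1.12 TPM in Vehicle. Rps19bp1, the member that is not a ribosomal protein, had 120.7, 79.64 and 79.7 TPM in LPS samples, against 124.2, 110.1 and 105.3 TPM in Vehicle samples (log2 change -0.30, adjusted p = 0.186).

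Ribosomal proteins have many processed copies in mammalian genomes, and the deposited values divide reads between near-identical rows by estimate. Of the symbols, 8 had several rows (18 rows in all). The 2 rows of Rpl7a had the same value in every sample, and so did the 2 rows of Rpl35al1. Rps6, whose protein is phosphorylated by the S6 kinases, is listed at 0 in all 18 libraries, as are Rpl35a and 1 row of Rps19l2. Outside the rule, 68 further rows were annotated as a ribosomal protein, 39 of them at 1 TPM or more, and together they held 0.511% ± 0.0249 of TPM in LPS and 0.475% ± 0.0149 in Vehicle (SD, n = 3 each).

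For several proteins these other rows held most of the TPM. Rpl38 had 0, 8.257 and 4.477 TPM in LPS samples and is listed at 0 in all 3 Vehicle samples, so it passed the filter through LPS samples alone and no fold is given (adjusted p = 0.0952). A second row annotated as L38, LOC685963, had 1129, 933.2 and 950.1 TPM in LPS samples, against 1004, 925.2 and 769.5 TPM in Vehicle samples. Rps29 had 77.39, 61.22 and 79.76 TPM in LPS samples, against 45.72, 70.61 and 51.85 TPM in Vehicle samples, while the S29 row LOC108352650 averaged 836 ± 37.0 TPM in LPS and 747 ± 57.8 TPM in Vehicle. Rpl9 averaged 29.1 ± 1.73 TPM in LPS and 25.1 ± 2.79 TPM in Vehicle, beside 391 ± 16.9 TPM in LPS and 377 ± 17.8 TPM in Vehicle for the L9 row LOC100360449. In these proteins the row with the standard symbol was a small fraction of the whole, and its change rested on few of the TPM.

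Rpl30, which lies at the face where the subunits meet, had the highest change of any member with more than 10 TPM. It had 150.1, 142.9 and 236.0 TPM in LPS samples, against 127.9, 113.5 and 77.97 TPM in Vehicle samples, without overlap, for a log2 change of 0.70 (SE 0.28, 95% interval 0.05 to 1.36, adjusted p = 0.0906). A second L30 row, LOC100362027, had 138.3, 153.2 and 64.46 TPM in LPS samples, against 136.6, 136.8 and 180.9 TPM in Vehicle samples. In pair 3, where Rpl30 was far apart between the groups, this row was far apart the other way. The sum of all 5 rows annotated as L30 was 288.4, 296.6 and 302.0 TPM in LPS samples, against 264.7, 251.1 and 258.9 TPM in Vehicle samples. The sums varied less than either row, and their log2 change was 0.19 (95% interval -0.13 to 0.51, adjusted p = 0.279).

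S20 had its 2 main rows on the same side, with the highest log2 change among the summed proteins. Rps20 had 204.2, 276.8 and 263.3 TPM in LPS samples, against 195.9, 169.9 and 204.1 TPM in Vehicle samples, a log2 change of 0.38 (adjusted p = 0.117). Its second row, LOC100359951, had 249.4, 301.5 and 326.9 TPM in LPS samples, against 211.5, 193.3 and 217.2 TPM in Vehicle samples, and that row rose with LPS by 0.49 on the log2 scale (SE 0.15, adjusted p = 0.0498). The sum over the rows annotated as S20 was 453.6, 578.3 and 590.2 TPM in LPS samples, against 407.4, 363.2 and 421.4 TPM in Vehicle samples. Every LPS sum was above every Vehicle sum, at a log2 change of 0.44 (95% interval 0.09 to 0.79) that did not pass the test (adjusted p = 0.0606). Rps20 is a protein of the head of the small subunit, and like Rpl5 and Rpl11 it is known to bind Mdm2 in cultured cells.

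Summing all rows annotated as the same ribosomal protein, a step chosen after the data had been seen, gave 80 tested entries, 41 of them from several rows. Of these, 0 passed the test, against 29.7% of all rows tested in that fit, and 2 had an unadjusted p under 0.05. Their median log2 change was 0.03, with a range of -0.52 to 0.44. L39 summed to 220 ± 9.77 TPM in LPS and 258 ± 26.5 TPM in Vehicle (log2 change -0.20, adjusted p = 0.268), and S29 summed to 998 ± 71.1 TPM in LPS and 853 ± 80.6 TPM in Vehicle (log2 change 0.22, adjusted p = 0.228; SD, n = 3 each). S14, which had no row under its own symbol, was carried by LOC100911847 at 495 ± 23.3 TPM in LPS and 460 ± 37.0 TPM in Vehicle, and S19 mainly by a row of Rps19l2 at 360 ± 15.6 TPM in LPS and 346 ± 38.6 TPM in Vehicle. Both rows of Rps27a, which encodes a ubiquitin fused to a small subunit protein, were members: the larger averaged 268 ± 19.3 TPM in LPS and 251 ± 11.1 TPM in Vehicle, and the other had 109.3, 114.4 and 107.2 TPM in LPS samples, against 91.46, 93.85 and 88.18 TPM in Vehicle samples. The second row did not overlap between groups (log2 change 0.29, adjusted p = 0.166), and the sum of both had a log2 change of 0.15 (adjusted p = 0.388).

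**Figure D5:**
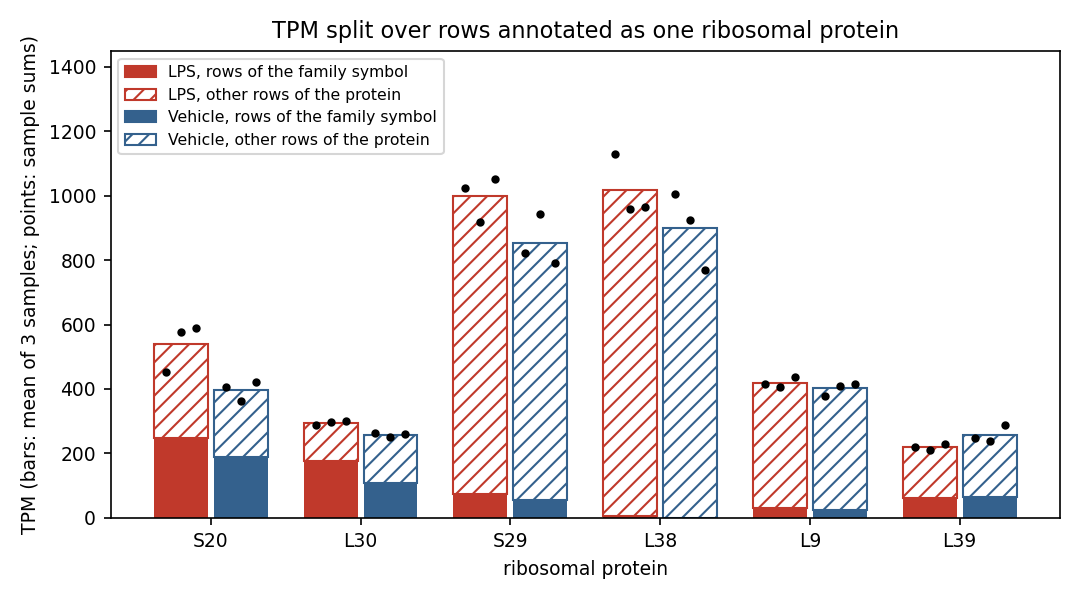
TPM (vertical axis, from 0) of 6 ribosomal proteins in LPS (left bar) and Vehicle (right bar), as the mean of 3 samples split into rows with the family symbol (filled) and other rows annotated as the same protein (hatched); points are the summed TPM of samples 1 to 3. L30 splits differently in the groups while its sums are 288.4 to 302.0 TPM in LPS and 251.1 to 264.7 TPM in Vehicle.

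Genes that share the TOP motif or control it were read from lists chosen for this purpose. Of 24 tested TOP genes other than ribosomal proteins, 1 was called higher and 1 lower (8.33%, against 29.4% of all tested rows), with a median log2 change of -0.04. Pabpc1, the poly(A)-binding protein, rose to 61.04, 73.56 and 78.11 TPM in LPS samples, against 43.24, 48.74 and 41.33 TPM in Vehicle samples (log2 change 0.69, adjusted p = 0.0312). Eif4b, a helper of the initiation helicase, fell to 24.69, 18.83 and 18.15 TPM in LPS samples, against 30.64, 31.51 and 41.06 TPM in Vehicle samples (log2 change -0.72, adjusted p = 0.0438), but was not called after median-ratio scaling (-0.32, adjusted p = 0.167) or quantile normalization (-0.42, adjusted p = 0.124). The elongation factor Eef1a1 averaged 745 TPM in LPS and 736 TPM in Vehicle, Tpt1 averaged 545 TPM in LPS and 462 TPM in Vehicle, and the small subunit scaffold Rack1 averaged 175 TPM in both groups. Among the uncalled genes only Naca and Npm1 had an unadjusted p under 0.05. Both were lower in LPS without overlap, with log2 changes of -0.40 (adjusted p = 0.0603) and -0.375 (adjusted p = 0.0942). Eef1a1, Tpt1, Rack1, Naca and Npm1 are outside the rule for named genes.

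Factors that make ribosomes were lower more often than higher, as were the tested rows at large. Of 112 tested rows of assembly factors and RNA polymerase I, 1 was called higher and 12 lower (11.6% in all), against 7.17% of all tested rows called higher and 22.2% called lower. Their median log2 change was -0.25, against -0.38 over all tested rows. After median-ratio scaling, and likewise after quantile normalization, 1 was called higher and 1 lower (Eif6 and Utp4). Eif6, which keeps the new large subunit from joining the small one too early, rose to 250.3, 580.3 and 387.6 TPM in LPS samples, against 157.7, 164.5 and 187.2 TPM in Vehicle samples (log2 change 1.18, adjusted p = 0.0156). Utp4, a factor of small subunit processing, had a log2 change of -1.24 (adjusted p = 0.0139), Ubtf, an activator of RNA polymerase I, had -0.98 (adjusted p = 0.0215), and the RNA methyltransferase Nop2 had -0.80 (adjusted p = 0.0312). Each LPS sample was below each Vehicle sample in all 3 of these genes. After median-ratio scaling Ubtf had -0.59 (adjusted p = 0.0637) and Nop2 had -0.41 (adjusted p = 0.0991), and neither was called after quantile normalization (adjusted p = 0.0577 and 0.0854).

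Of 43 tested rows for mTORC1 and TOP message control, 3 were called higher and 8 lower (25.6%, against 29.4% of all tested rows), with a median of -0.34 (-0.38 over all). This share was close to that of all tested rows. Sesn1, which restrains mTORC1 when leucine is low, fell to 3.24, 0.927 and 1.12 TPM in LPS samples, against 18.21, 19.7 and 17.59 TPM in Vehicle samples (log2 change -2.91, adjusted p = 0.0018). Tbc1d7, a subunit of the TSC complex that inhibits the pathway, had a log2 change of -1.51 (adjusted p = 0.0072), and Deptor, an inhibitor bound to mTOR, had -1.33 (adjusted p = 0.00783). These 3 had the smallest p of the 8 called lower and were not picked for their roles. Mlst8, also called lower, had -1.27 (adjusted p = 0.0216). Mtor, the gene of mTOR itself, had -0.51 and was not called (adjusted p = 0.115). Mlst8 and Mtor are outside the rule for named genes. Myc, a transcription factor that drives ribosome production, had 2.39, 34.5 and 25.2 TPM in LPS samples, against 0.97, 0.543 and 0.59 TPM in Vehicle samples (log2 change 3.14, adjusted p = 0.0202), so LPS 1 was far below the other LPS samples, and it was not called after median-ratio scaling (adjusted p = 0.0651) or quantile normalization (adjusted p = 0.0591). Its partner Max had a log2 change of 0.73 (adjusted p = 0.028), and Pabpc1, given above, was the third that was higher.

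Of 29 tested genes for stalled ribosomes and ribosome quality control, 4 were called higher and 3 lower (24.1%, against 29.4% of all tested rows), with a median of -0.27. Cdkn1a, an inhibitor of the cell cycle, had a log2 change of 1.77 (adjusted p = 0.00999), and Pelo, which rescues stalled ribosomes, had 0.95 (adjusted p = 0.018). Gigyf2, a repressor of messages with stalled ribosomes, had -1.32 (adjusted p = 0.0159), the deubiquitinase Usp21 had -0.94 (adjusted p = 0.0359) and the ubiquitin ligase Ltn1 had -0.68 (adjusted p = 0.048). After median-ratio scaling Usp21 had -0.54 (adjusted p = 0.121) and Ltn1 had -0.31 (adjusted p = 0.166), and neither was called after quantile normalization (adjusted p = 0.101 and 0.202). Of the 32 genes called in the 4 lists, 18 lost their call under both scalings and 14 kept it under each, with no change of sign. The calls rested on particular samples: without pair 3, 0 rows of the whole table were called, and without pair 2 the 4 lists, in the order given, had 0, 1, 3 and 2 called.

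Facts of the whole series touch these values as follows. TPM keeps no read number, so the depth of each library is unknown. Libraries had 11399 to 11841 rows at 1 TPM or more in LPS and 11932 to 12704 in Vehicle, and mitochondrially encoded rows held 8.16% ± 0.178 of TPM in LPS and 8.77% ± 0.606 in Vehicle (SD, n = 3 each). Defining markers of the labelled segment were detected: the summed level of principal cell markers was 8740 to 12250 TPM in LPS samples and 15720 to 17460 TPM in Vehicle samples, with 6 of 8 called lower. Over all tested rows, 7.17% were called higher and 22.2% lower, and the marker counts here are to be read beside these shares. Intercalated cell markers summed to 4212 to 5711 TPM in LPS samples and 5827 to 6473 TPM in Vehicle samples, with 1 of 7 called lower. Macrophage and monocyte markers summed to 195 to 449 TPM in LPS samples and 114 to 256 TPM in Vehicle samples, with 4 of 10 tested called higher and 1 lower, and neutrophil markers summed to 3.44 to 78.1 TPM in LPS samples and 1.34 to 2.11 TPM in Vehicle samples, with 2 of 3 tested called higher. Distal and connecting tubule markers summed to 57.8 to 327 TPM in LPS samples and 149 to 5305 TPM in Vehicle samples, with Pvalb at 0 and 4 of 4 tested called lower, and red cell markers to 28.4 to 2287 TPM in LPS samples and 134 to 1019 TPM in Vehicle samples, with 0 of 6 tested called. Thick ascending limb markers summed to 93.6 to 237 TPM in LPS samples and 111 to 153 TPM in Vehicle samples, with 0 of 5 called. Markers of lymphocytes, proximal tubule, endothelium and fibroblasts summed to at most 105 TPM in any sample. Of 8 tested endothelial markers 1 was called higher and 1 lower, and no tested marker of lymphocytes, proximal tubule or fibroblasts was called. The part of these other cell types in the ribosomal protein levels was not tested.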

How the data were processed

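The authors deposited TPM values, with a column for each library and 32883 Ensembl rows. STAR 2.7.9a, RSEM 1.3.3 and build Rnor_6.0 are named in the submitters' processing notes; the annotation release is not given in the sources used here. Because TPM scales each library to 1 total, it keeps no depth. Column letters N and L were read as saline vehicle and LPS, and 0 columns belonged to other samples. For each numbered sample, log2(TPM + 1) was averaged over its 3 libraries. The 12393 rows with a mean of at least 1 TPM were tested two-sided in R 4.3.3 with limma 3.58.1, moderating variances along a trend and adjusting by Benjamini-Hochberg over all tested rows. Sample number entered as a block, following the paired design that the submitters state. The pairs' deviations from group means correlated at 0.06, -0.02 and 0.07. Shares and ratios used exact permutation tests over samples in Python 3.11.15 with scipy 1.17.1. These tests do not use the pairs, and sign flips within pairs were run as an alternative. Members, lists, markers and motifs were chosen with earlier results of these data known. Named genes were the 5 most abundant members, fixed symbols with known roles or paralogs, and up to 3 called genes per list and direction with the smallest p; others are marked, and 1 gene that the rule names is not reported here. Start sites came from RefSeq on GRCr8, not the files' build. The fit was tested on simulated data. Alternatives covered the block, libraries, pseudocount, filters, scaling, variance trend and each pair left out.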

Additional observations from a re-analysis of the deposited data

How the results depend on the processing

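The count of 0 members called was also 0 with no replicate block, with the median of libraries, with other pseudocounts, with no filter and after quantile normalization, while the count for the table varied widely. With the median of libraries 0 rows of the whole table were called, and with no filter 20 were. A count of 0 members in those settings therefore says little about the family. Rows called in all were 6484 with all 18 libraries, 0 with the median of libraries, 20 with no filter, 1314 after median-ratio scaling, 1362 after quantile normalization, and, in settings chosen after seeing the data, 479 above 50 TPM and 120, 0 and 0 from library number 1, 2 or 3 alone; leaving out a pair gave 0 to 4599. Members called higher were 4 after median-ratio scaling and 1 (Rpl30) with all 18 libraries, and 0 to 1 with a pair left out (Rpl38, without pair 1); members called lower were 1 with all 18 libraries (Rps19bp1) and 1 without a variance trend (a low Rpl21 row). The members' median was 0.444 after median-ratio scaling. Genes called in the list of other TOP genes were 4 with no replicate block, 6 with all libraries, 0 with the median of libraries, 1 at pseudocount 5, 0 with no filter, 1 after either scaling and 1 without a variance trend, and 0 to 3 with a pair left out. The assembly list gave 27, 40, 0 and 0 for no replicate block, all libraries, the median of libraries and no filter, then 2 after either scaling, and 0 to 12 with a pair left out. The mTORC1 list gave 26, 0 and 0 for all libraries, the median of libraries and no filter, then 7 after either scaling, and 0 to 16 with a pair left out. The quality control list gave 11, 16, 0 and 0 for no replicate block, all libraries, the median and no filter, then 6 (5 higher, 1 lower) after either scaling, and 0 to 8 with a pair left out. The paired fit with the replicate block was the one reported, and without it 0 members were called as well. The difference in share was 0.0563 to 0.135 with a pair left out, the subunit ratio difference was -0.0193 to 0.0552 with a pair left out, and the Rps27l to Rps27 difference was 0.0433 with the median of libraries. Of 375 values of 29 named members under alternatives, 30 had the other sign, none of them called: after median-ratio scaling Rpl13a 0.174, Rpl18 0.209, Rpl22l1 0.244, Rpl36a 0.312, Rpl36al 0.119, Rpl39 0.357, Rpl7 0.399 and Rpl7l1 0.122; after quantile normalization Rpl3 -0.072, Rpl36 -0.066, Rpl36a 0.177, Rpl39 0.111, Rpl41 -0.179, Rpl7 0.288, Rplp0 -0.038, Rplp1 -0.016 and Rps27l -0.056; with the median of libraries Rpl3 -0.065, Rpl39 0.092, Rplp2 -0.059 and Rps27 -0.022; and with a pair left out the ranges were -0.05 to 0.048 for Rpl3, -0.003 to 0.038 for Rpl36, -0.007 to 0.033 for Rpl41, -0.008 to 0.009 for Rpl7, -0.035 to 0.108 for Rplp0, -0.061 to 0.166 for Rplp2 and -0.015 to 0.064 for Rps27l. The ratio of Rpl22l1 to Rpl22 was not run because no row with the symbol Rpl22 was analysed here. Unknown depth limits what can be said of rows near 0, and near-identical copies limit what can be said of single rows.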

Other observations

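The ribosomal protein rows followed the library number that the labels give within each sample. Library 1 held the lowest share of the 3 libraries in 6 of 6 samples, at 1.95%, 1.89% and 2.08% of TPM in LPS samples 1 to 3 and 1.84%, 1.96% and 1.87% in Vehicle samples 1 to 3. The other libraries lay between 2.08% and 2.44% in LPS samples and between 2.12% and 2.28% in Vehicle samples. The members' median log2 difference, library 1 minus the mean of the other libraries, was -0.27, -0.18 and -0.13 in LPS samples and -0.28, -0.15 and -0.17 in Vehicle samples. Over all tested rows that median was 0.16, 0.11 and 0.08 in LPS samples and 0.02, 0.01 and 0.16 in Vehicle samples. Of the 91 tested members, 18 (19.8%) were lowest in library 1 in all 6 samples, against 76 of all tested rows (0.613%), and 87 (95.6%) had a mean difference below 0, against 28.4% of all tested rows. The labels do not say what the number stands for. Within a library number the difference in share (LPS minus Vehicle, percentage points) was 0.0781 for library 1 (exact permutation p = 0.4), 0.0189 for library 2 (exact p = 0.9) and 0.153 for library 3 (exact p = 0.1, the smallest that 3 against 3 can give).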
